A study of Mus musculus with 2 samples.

Results

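The Sprr2 genes encode small proline-rich proteins that are crosslinked into the cornified envelope of the epidermis. They were described here in the skin of newborn mice without Pla2g4e, an enzyme of the phospholipase A2 family that forms N-acyl phosphatidylethanolamines. Members were all non-control probes whose gene name in the deposited files begins with Sprr2. They came to 13 probes for 10 genes, out of 39422 probes for 24287 named genes on the array. The genes were Sprr2b, Sprr2d, Sprr2e, Sprr2f, Sprr2g, Sprr2h, Sprr2i, Sprr2j-ps, Sprr2k and Sprr2a, where Sprr2a stands for probes that the files name Sprr2a1 or Sprr2a2. The family was taken up because its values were known to be higher in the knockout, so its differences between the genotypes are given as a description.

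The study set skin of Pla2g4e-/- (KO) newborns against skin of Pla2g4e+/+ (WT) newborns, both of the strain C57BL/6N and taken on postnatal day 0. Each genotype was represented by 1 array, and each array held equal amounts of total RNA from the skin of 5 animals. With 1 pool per genotype there was no replicate error, no test could be run and no p-value is given. The errors printed with differences are the scanner software's own estimate for spots and do not describe animals. For bright probes they were nearly constant at 0.20 log2, whatever the signal, and so are no measured spread of spots. Probes printed at least 5 times varied less between their spots, with a median SD of 0.041 log2. The arrays shared a slide in different positions, so position and genotype cannot be told apart.

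The whole arrays were alike in brightness. Median spot signal was 241 in the KO pool and 249 in the WT pool, and 80.8% of probes in the KO pool and 78.0% in the WT pool were well above background. Pla2g4e itself read 320 in the KO pool and 662 in the WT pool by its brighter probe, a scaled difference of -0.96 ± 0.20 log2, or 51.4% of the WT level. Its other probe was dim and not lower, at 11.7 in the KO pool and 10.6 in the WT pool. That probe was well above background in the KO pool alone. Which exons are missing from the KO allele is not stated, so the brighter probe may lie outside them and then checks nothing about the labels. The pools also differed in sex-linked RNA. The Y-linked gene Eif2s3y read 6.35 in the KO pool and 5363 in the WT pool, and Ddx3y 2.36 in the KO pool and 2893 in the WT pool. Xist, the RNA of the inactive X chromosome, read 2889 in the KO pool and 796 in the WT pool. The mix of sexes and the genotype cannot be told apart in any difference below. In pooled skin, fewer cells of a type and less RNA per cell cannot be told apart either.

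As background, keratinocytes at the end of their life replace the cell membrane with the cornified envelope, a shell of proteins joined by transglutaminases. Loricrin forms much of it, involucrin is a part of it, and small proline-rich proteins act as bridges between its proteins. The Sprr genes lie side by side in the epidermal differentiation complex together with loricrin, involucrin, filaggrin and the late cornified envelope (Lce) genes. Sprr2 genes are known to be raised in stressed, wounded or inflamed epidermis, and in mice also in the uterus under oestrogen. Promoter studies of Sprr genes have described sites for AP-1, ETS and Krüppel-like factors.

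Because members of the family resemble each other, the probe sequences show how far each signal can be told from the next. The probes are 60 bases long, and a stretch of 30 bases of each is given below, with the longest run that it shares with another member's probe in capitals. The first group holds the members that differed most.
Sprr2i: tttttcATTTCCTGAATAAAGTACcgtctt
Sprr2j-ps: cactggtgttctATTTCCTGAATAAAGTAC
Sprr2f: tcagtatgACATTTTTCAAATCTctctgtc
Sprr2g: ttccatttgCTGAATAAAGTAtaatctttt
Sprr2e: ttgtgttgtcattgtTGTTTCATTTCCTGA
Sprr2d: tgtgttgtcagcatgGTTTCATTTCCTGAA

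The second group holds the members with smaller differences, including both Sprr2a2 probes that were well above background on both arrays, numbered by their position in the target as the array's design gives it.
Sprr2h: ACATTTTTCAAATCTttctgacattttgcc
Sprr2a2 at 737: ctgctGTTTCATTTCCTGAAataaaaaagg
Sprr2a2 at 2907: attcatggcctAATAAACAAaaacgaaaaa
Sprr2b: gggaagtaagagAAATCTGTctcactggct
Over their full length no pair of member probes differed by fewer than 21 edits, and the longest run in common was 18 bases, between Sprr2i and Sprr2j-ps. Sprr2f and Sprr2h shared 15 bases, as did Sprr2a2 at 737 with Sprr2d and with Sprr2e. How much RNA of one member binds the probe of another was not tested, so values of single members carry that uncertainty.

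Most Sprr2 genes were higher in the KO pool. Of the 9 genes with a probe well above background on both arrays, 6 stood 2-fold or more higher in the KO pool and 0 stood 2-fold or more lower. Of the 19397 genes measured, 2.23% reached a 2-fold difference toward the KO pool and 1.44% a 2-fold difference toward the WT pool. The median difference was 2.17 log2 for the 9 Sprr2 genes and 0.01 log2 for all genes, whose central 95% ran from -0.76 to 0.95. All 9 Sprr2 genes lay above 0, from 0.11 to 3.51 log2. Sprr2h stood just under the 2-fold size, at 0.97 log2. The lowest gene above that size was Sprr2j-ps, at 1.57 log2 or 2.96-fold. Sprr2k, the remaining gene, had a probe that was not well above background on either array, at 7.83 in the KO pool and 3.08 in the WT pool.

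**Figure D1:**
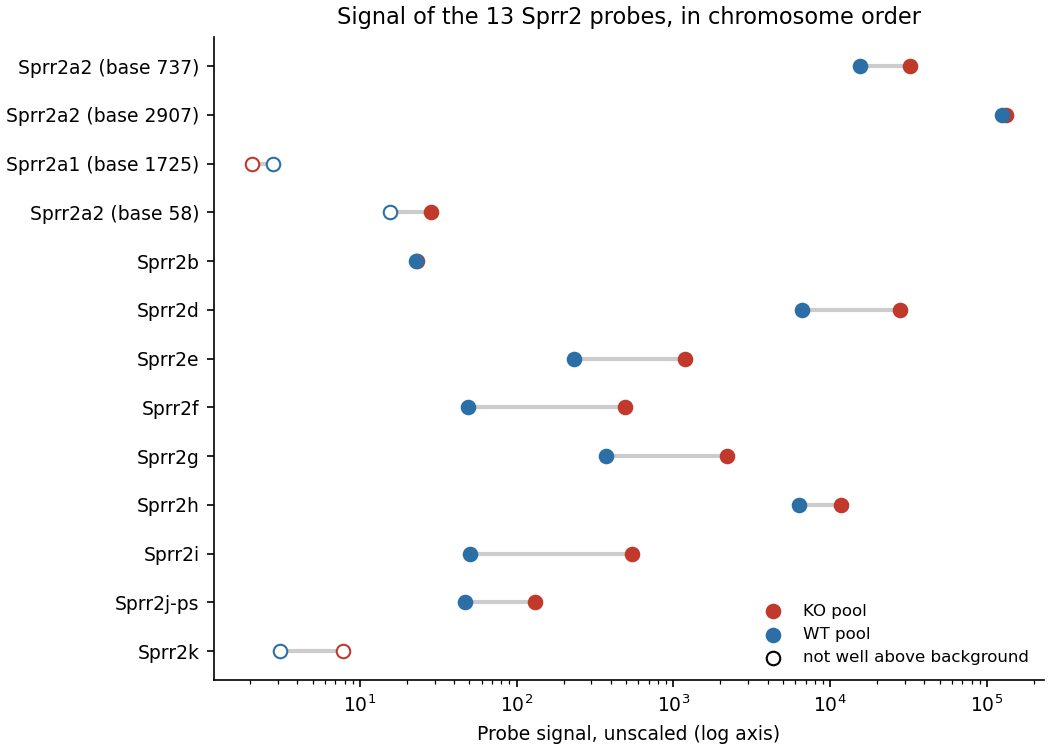
Unscaled signal (log axis) of each of the 13 Sprr2 probes in the KO pool (red) and the WT pool (blue), in chromosome order from the top; open circles were not well above background. The gap is widest for Sprr2i (542 in the KO pool, 50.6 in the WT pool) and Sprr2f (495 in the KO pool, 49.2 in the WT pool), while the points of Sprr2b and of Sprr2a2 at base 2907 nearly coincide.

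Sprr2i and Sprr2f, both coding members, were at the top of the family by difference. The Sprr2i probe, at mm9 chr3:92213134-92213193, read 542 in the KO pool and 50.6 in the WT pool. After scaling, that was 11.4-fold higher in the KO pool, or 3.51 ± 0.22 log2 (scanner error). It ranked 8 among all measured genes by difference toward the KO pool. The Sprr2f probe, at chr3:92170259-92170318, read 495 in the KO pool and 49.2 in the WT pool, which made it 10.7-fold higher, or 3.42 ± 0.22 log2, at rank 9. The difference between these genes, 3.51 against 3.42 log2, is smaller than their scanner errors. Both probes were well above background in both pools but dim in the WT pool, and the size of these differences depended on the background correction. With normexp, whose offset of 50 draws dim probes together, Sprr2i stood at 2.62 log2 and Sprr2f at 2.46, next to Sprr2g, a pseudogene, at 2.47.

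Sprr2g and Sprr2j-ps are transcribed pseudogenes in the annotation used here, and both were higher in the KO pool. Sprr2g, at chr3:92179092-92179151, read 2190 in the KO pool and 374 in the WT pool, a difference of 2.64 ± 0.20 log2. Sprr2j-ps, at chr3:92223245-92223304, read 131 in the KO pool and 47.0 in the WT pool, a difference of 1.57 ± 0.23 log2. With normexp Sprr2j-ps stood at 1.0 log2, at the edge of the 2-fold size. The Sprr2j-ps probe is the one whose run of 18 bases recurs in the Sprr2i probe, shown above.

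Sprr2e and Sprr2d, neighbours that both code for envelope precursors, stood in the middle of the range. Sprr2e, at chr3:92157288-92157347, read 1196 in the KO pool and 233 in the WT pool, or 2.45 ± 0.20 log2, 5.46-fold. Sprr2d, at chr3:92144721-92144780, read 28053 in the KO pool and 6623 in the WT pool, or 2.17 ± 0.20 log2, 4.51-fold. The gap between them was little more than a scanner error. Over the ways of processing that were tried, Sprr2e ran from 2.19 to 2.45 log2 and Sprr2d from 2.13 to 2.18.

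Sprr2h lay just under the 2-fold size, and Sprr2b did not differ beyond its scanner error. Sprr2h, at chr3:92191160-92191219, read 11714 in the KO pool and 6361 in the WT pool, or 0.97 ± 0.20 log2. It sits between Sprr2g and Sprr2i on the chromosome, each of which differed by at least 2.64 log2. Sprr2b, at chr3:92121660-92121719, read 23.2 in the KO pool and 22.9 in the WT pool, or 0.11 ± 0.31 log2. That signal is close to the dimmest that counted as well above background, which was 9.84 in the KO pool and 13.5 in the WT pool.

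**Figure D2:**
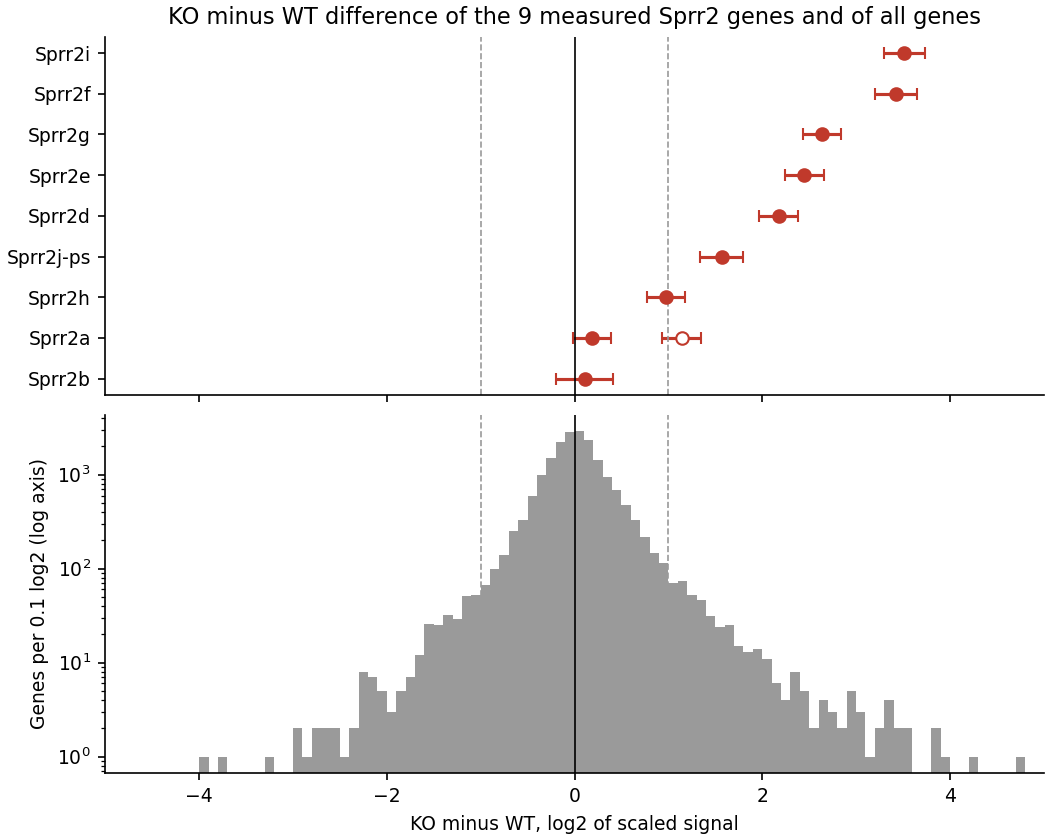
Top, the difference of each measured Sprr2 gene (KO minus WT, log2 of scaled signal) with its scanner error as a bar; the open circle is the second measured probe of Sprr2a, at 1.14. Bottom, a histogram of the same difference over all 19397 measured genes (counts on a log axis); dashed lines mark 2-fold. Sprr2i and Sprr2f, at 3.51 and 3.42, lie in the sparse right tail, and Sprr2b and the brightest Sprr2a probe lie near 0.

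The reading of Sprr2a depended on the probe. RefSeq lists 3 closely related genes, Sprr2a1, Sprr2a2 and Sprr2a3, where the files name probes only for Sprr2a1 and Sprr2a2, and their signals were not separated. The Sprr2a2 probe at 737, chr3:92023604-92023663, read 32327 in the KO pool and 15613 in the WT pool, or 1.14 ± 0.20 log2, 2.21-fold higher. The Sprr2a2 probe at 2907, chr3:92025774-92025833, was brighter, with 132804 in the KO pool and 124458 in the WT pool, and differed by 0.18 ± 0.20 log2. By the fixed rule the brighter probe stands for the gene, so Sprr2a is counted among the 3 genes under 2-fold. With the dimmer probe in its place, a choice made after seeing the data, 7 of 9 genes were at least 2-fold higher.

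The brighter Sprr2a2 probe carries sequence that is not particular to the gene. It shared runs of 19 to 31 bases with 7 probes outside the family, designed for targets on 6 chromosomes. A run of 19 bases from it recurs in 6 of these 7 probes.
Run in the Sprr2a2 probe at 2907: tgagctgttggagcccatt
The 7 probes read between 90016 and 201528 in the KO pool and between 90421 and 199971 in the WT pool, and their differences ran from -0.06 to 0.10 log2. For every other member probe, the longest run shared with a probe outside the family was under 18 bases. Of the remaining Sprr2a probes, the Sprr2a1 probe was not well above background on either array, at 2.05 in the KO pool and 2.79 in the WT pool. The Sprr2a2 probe at 58 was well above background in the KO pool alone, at 28.6 against 15.6 in the WT pool. That was a scaled ratio of 1.95, or 0.97 ± 0.38 log2. This last probe differed by 1 edit from a stretch at the start of Sprr2b, and capitals mark the 8 bases that it shares with the Sprr2a2 probe at 737.
Sprr2a2 at 58: TAAAAAAGtgtctcagtgcttgactgcagt

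The promoters of the members were set side by side. The 250 bases before the annotated start are shown for the coding members with a value, and also for Sprr2a1. They are from RefSeq on GRCm38.p6, plus strand, and were matched by symbol. In all, 10 Sprr2 genes had an entry, counting Sprr2a1, Sprr2a2 and Sprr2a3 apart. Capitals mark the words TGANTCA, the core of an AP-1 site, TTTGCAT, part of an octamer read from the other strand, and TATAAA, the word of the TATA box. The first 4 belong to members at least 2-fold higher in the KO pool.
Sprr2i, chr3:92407741-92407990: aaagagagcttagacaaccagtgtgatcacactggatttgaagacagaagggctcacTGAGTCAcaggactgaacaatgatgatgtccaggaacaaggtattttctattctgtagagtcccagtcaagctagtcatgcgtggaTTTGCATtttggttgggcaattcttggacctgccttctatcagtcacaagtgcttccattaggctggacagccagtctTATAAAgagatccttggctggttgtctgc
Sprr2f, chr3:92364937-92365186: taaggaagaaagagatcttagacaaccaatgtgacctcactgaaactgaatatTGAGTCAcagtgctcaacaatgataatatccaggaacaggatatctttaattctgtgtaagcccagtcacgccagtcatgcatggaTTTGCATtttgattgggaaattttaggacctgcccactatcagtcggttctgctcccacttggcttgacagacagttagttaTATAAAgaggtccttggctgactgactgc
Sprr2e, chr3:92351893-92352142: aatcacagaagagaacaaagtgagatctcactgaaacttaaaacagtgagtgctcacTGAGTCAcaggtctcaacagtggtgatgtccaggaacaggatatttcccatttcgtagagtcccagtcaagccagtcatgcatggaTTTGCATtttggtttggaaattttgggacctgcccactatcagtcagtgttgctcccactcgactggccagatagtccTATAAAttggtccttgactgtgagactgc
Sprr2d, chr3:92338890-92339139: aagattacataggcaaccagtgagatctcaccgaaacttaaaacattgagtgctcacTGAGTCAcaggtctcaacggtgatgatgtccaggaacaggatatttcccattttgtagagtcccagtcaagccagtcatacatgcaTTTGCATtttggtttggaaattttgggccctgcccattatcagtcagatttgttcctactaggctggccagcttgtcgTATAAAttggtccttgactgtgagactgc
Sprr2h, chr3:92385435-92385684: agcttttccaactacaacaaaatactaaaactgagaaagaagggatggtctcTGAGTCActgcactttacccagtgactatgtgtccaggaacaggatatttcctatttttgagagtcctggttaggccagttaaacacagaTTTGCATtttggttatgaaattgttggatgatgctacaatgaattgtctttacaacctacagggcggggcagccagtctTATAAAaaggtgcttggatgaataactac
Sprr2b, chr3:92316455-92316704: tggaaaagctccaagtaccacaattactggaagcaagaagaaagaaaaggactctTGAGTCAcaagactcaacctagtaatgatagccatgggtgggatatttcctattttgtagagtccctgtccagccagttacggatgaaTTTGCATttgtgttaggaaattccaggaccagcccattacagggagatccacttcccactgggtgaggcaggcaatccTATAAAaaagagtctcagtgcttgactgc
Sprr2a1, chr3:92215585-92215834: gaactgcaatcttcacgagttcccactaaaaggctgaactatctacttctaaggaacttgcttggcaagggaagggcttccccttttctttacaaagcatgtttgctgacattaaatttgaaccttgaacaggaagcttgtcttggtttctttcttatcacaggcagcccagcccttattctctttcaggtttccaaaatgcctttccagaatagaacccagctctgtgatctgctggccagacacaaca

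Each of the 3 words stood at nearly the same place in 7 members, namely Sprr2b, Sprr2d, Sprr2e, Sprr2f, Sprr2h, Sprr2i and Sprr2k. TATAAA began 29 bases before the start in each of them. The octamer word began 107 to 111 bases before the start, and TGANTCA 193 to 198 bases before it, with another copy in Sprr2k 182 bases before. The windows of Sprr2a1, Sprr2a2 and Sprr2a3 held none of the 3 words. Their annotated starts are not placed alike, since the word AGGAAG began 120 bases before the start of Sprr2a1 and 92 before that of Sprr2a3. The Sprr2a2 probe at 58 was found at the start of Sprr2b and in no Sprr2a window, with up to 15 edits allowed. Whether the 3 words stand before another start of the Sprr2a genes was not tested. Both strands were searched in windows of 300 bases, 250 before and 50 after the start, for 32851 genes; TGANTCA is its own reverse complement, and the words do not overlap here. Over all windows, TATAAA was found in 13.6%, TGANTCA in 7.81% and the octamer word, searched as ATGCAAA, in 4.63%. All 3 together were found in 34 windows, or 0.103%, of which 7 belonged to Sprr2 genes. They were chosen for display from 9 words searched, after their positions were seen.

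**Figure D3:**
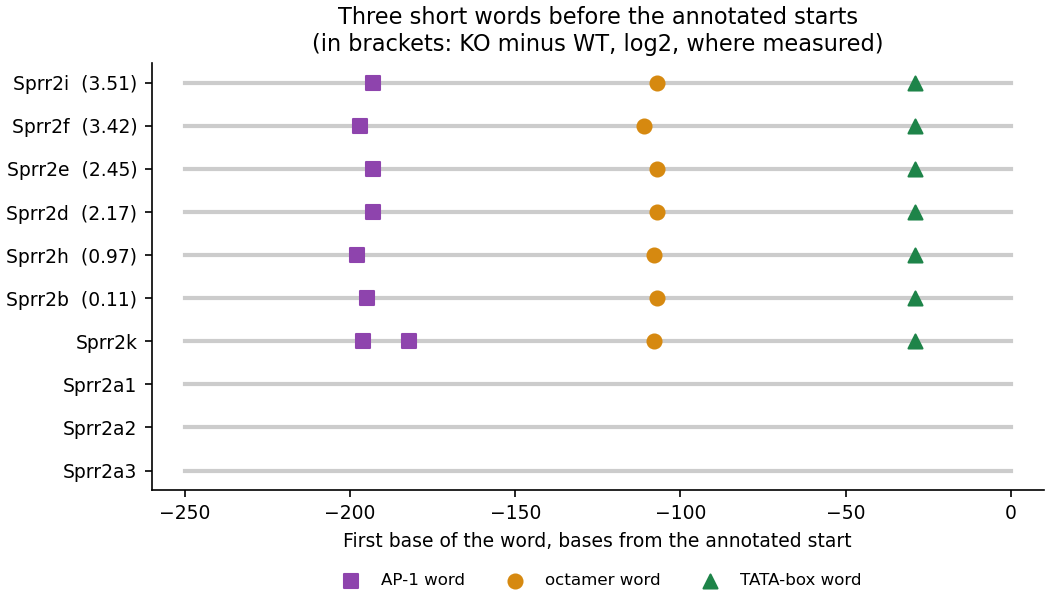
Positions of the AP-1 word (squares), the octamer word (circles) and the TATA-box word (triangles) in the 250 bases before the annotated start of 10 Sprr2 genes (x axis, bases from the start; in brackets, KO minus WT in log2 where measured under that name). The words line up at about the same distance in 7 genes, which include Sprr2i at 3.51 and Sprr2b at 0.11. They are not found in the windows set by the annotated starts of Sprr2a1, Sprr2a2 and Sprr2a3.

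These words did not part the members by their difference, since Sprr2h and Sprr2b carried all 3. Over their whole length the windows varied in likeness. Sprr2d, Sprr2e, Sprr2f and Sprr2i, all at least 2-fold higher in the KO pool, were 73.0% to 89.4% identical to each other. Sprr2b, Sprr2h and Sprr2k were 62.3% to 68.4% identical to those 4, and Sprr2h and Sprr2k 80.9% identical to each other. Of these, Sprr2k had no measured difference and Sprr2b was dim in both pools. Other words searched were AGGAAG for ETS factors (found in 5 of 10 member windows, 35.4% of all windows), CACCC for Krüppel-like factors (4 of 10, 57.5%), TTCNNNGAA for STAT factors (2 of 10, 8.30%), GAAANNGAA for interferon-stimulated elements (4 of 10, 8.56%), TGANNNNGC for antioxidant elements (5 of 10, 41.3%) and AGAACA for part of a glucocorticoid element (2 of 10, 19.0%). A word is a run of letters and not a proven site, and windows of pseudogenes were not used here.

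The higher values did not extend evenly along the part of the epidermal differentiation complex that was looked at. The Sprr2 probes span 214246 bases of chromosome 3 on mm9. Within 1.5 Mb on either side lay the probes of 48 other measured genes. Of these, 4, or 8.33%, were at least 2-fold higher in the KO pool, while 2 were at least 2-fold lower. The median of the 48 was 0.18 log2. S100a8 and S100a9, given below, are not among the 48, since the window was set by distance alone. The higher ones were Lce3a (3.26 log2), Lce3f (2.08), the S100-fused envelope protein gene Rptn (1.74) and Sprr1b (1.5), followed by Lce3e (0.95). The lower ones were Tchhl1 (-1.15) and Gm5849 (-1.05), followed by the cornulin gene Crnn (-0.84), Prr9 (-0.61) and Tchh (-0.58), which encodes trichohyalin of the inner root sheath. The nearest measured gene on one side was Sprr1b, 2.9 kb from the last Sprr2 probe, and on the other Lelp1, 84.2 kb away, at 0.21 log2. Among the Sprr2 probes themselves lie 3 probes of other names, 2 named Adrm1 (-0.07 and -0.13 log2) and 1 without a gene name (0.13 log2). Places are those of the probes, so a probe named for a gene that lies elsewhere, as may hold for Adrm1, is counted too. The source of the signal of such probes was not tested.

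**Figure D4:**
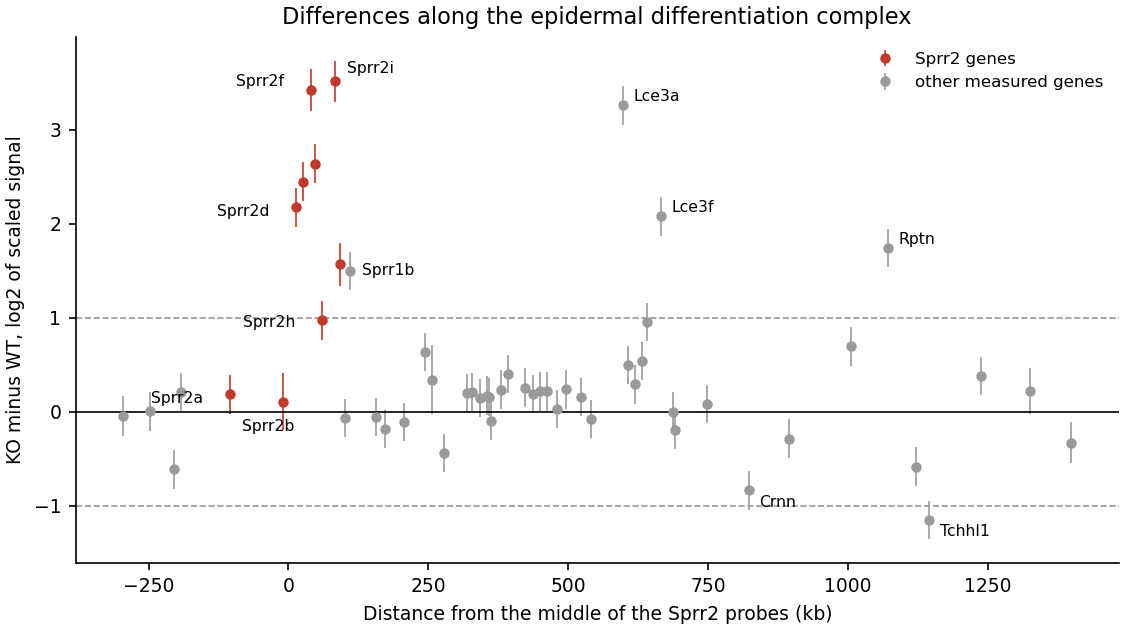
Difference (KO minus WT, log2 of scaled signal; bars are scanner errors) against distance in kb from the middle of the Sprr2 probes, for 55 measured genes of the region; 2 genes farther out on the left are not drawn, and dashed lines mark 2-fold. Values above the upper dashed line stand between Sprr2d and Sprr1b, where Sprr2h (0.97) and a probe named Adrm1 (-0.07) lie below it. They stand again at Lce3a, Lce3f and Rptn, with Lce1 genes near 0.

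The other small proline-rich genes were split. Sprr1b, a bridge protein of the same kind, read 26428 in the KO pool and 9976 in the WT pool, or 1.5 ± 0.20 log2. Sprr1a read 19636 in the KO pool and 21741 in the WT pool, or -0.06 log2, and Sprr4 differed by -0.18 log2. Sprr3, a gene of inner epithelia such as the oesophagus, was not well above background, at 3.02 in the KO pool and 3.20 in the WT pool.

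Among 14 measured genes listed as envelope proteins, 1 was at least 2-fold higher, Rptn, and 0 at least 2-fold lower, with a median of 0.23 log2. The list also takes in Cdsn, of the junctions between corneocytes, and Smcp, a neighbour in the complex known from sperm. Loricrin (Lor) read 246420 in the KO pool and 261825 in the WT pool, a scaled difference of 0.00 log2, and involucrin (Ivl) was at 0.63 log2. Hrnr, which encodes hornerin, was at 0.70 log2, and Crnn and Tchh, given above, were the lowest. Of the 9 measured enzymes that crosslink or process the envelope, 0 passed 2-fold in either direction, with a median of 0.08 log2. Tgm5 (0.39) and Asprv1 (0.37) were highest and the transglutaminase Tgm1 (-0.21) and the protease St14 (-0.41) lowest.

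Late cornified envelope genes were listed as Lce3 and Lce1 genes, and Lce6a, in neither list, was at -0.44 log2. Of 6 measured Lce3 genes, a class known from injured skin, 2 reached 2-fold toward the KO pool, and the class had a median of 0.75 log2. Lce3a read 675 in the KO pool and 75.2 in the WT pool, and Lce3f read 430 in the KO pool and 108 in the WT pool. Lce3b (0.50) and Lce3c (0.29) were the lowest of the class. Of 14 measured Lce1 genes, 0 passed 2-fold in either direction, with a median of 0.19 log2 and a range from -0.19 for Lce1m to 0.40 for Lce1f. Lce1g stood at 0.26 and Lce1k at 0.03.

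Of 15 measured genes known from stressed keratinocytes, 5 reached 2-fold toward the KO pool and 0 toward the WT pool. Their median was 0.60 log2. The 5 were the keratins Krt6b (3.08) and Krt6a (1.97), the protease inhibitor Slpi (2.55) and the calcium-binding S100a9 (2.36) and S100a8 (2.01). Krt17, often raised with them, was at -0.21 log2, and the cytokine gene Il36a at -0.18. Several of these genes were known to be high in these arrays when the list was drawn up, so the list is no independent support.

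Transcription factors and signals known to act on envelope genes showed no difference of 2-fold. Of 28 measured, 0 were at least 2-fold higher or lower, and the median was 0.09 log2. Fos, part of AP-1, read 7236 in the KO pool and 4054 in the WT pool, or 0.93 ± 0.20 log2. The ETS factor Ehf was at 0.81 log2, while Ovol1 (-0.43) and Nfe2l2, which encodes NRF2 (-0.36), were lowest. Of 14 measured targets of NRF2, a factor known in mice to act on Sprr2d, 1 was at least 2-fold higher, Aox1 at 1.04 log2, and 0 lower; with each array scaled to its median, 0 reached 2-fold. Their median was 0.15 log2, with Srxn1 at 0.94, Osgin1 at -0.40 and Gclc, the catalytic subunit of glutathione synthesis, at -0.41. Levels of RNA do not show the activity of these factors.

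**Figure D5:**
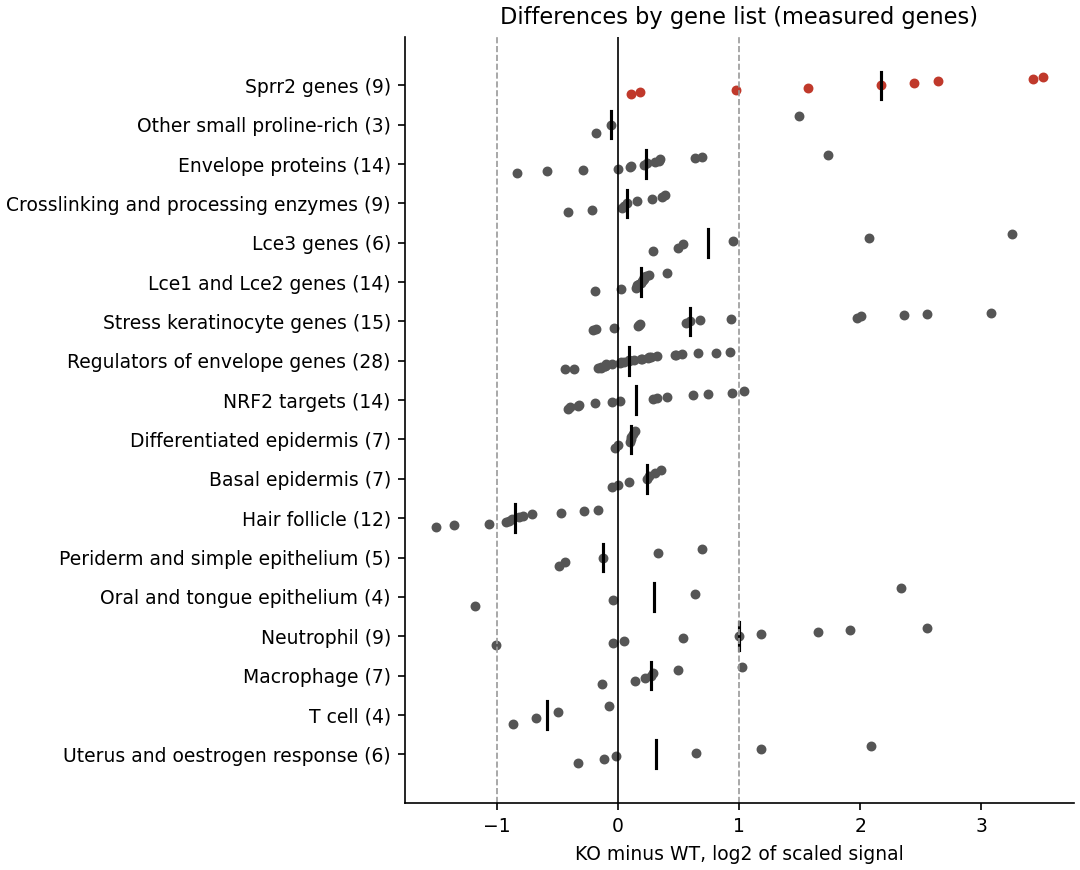
Differences (KO minus WT, log2 of scaled signal) of the measured genes of each list, 1 point per gene, with the list's median as a black bar and the number of genes in brackets; dashed lines mark 2-fold. The Sprr2 genes, at the top, have a median of 2.17, against 0.23 for envelope proteins, 0.60 for stress keratinocyte genes and -0.85 for hair follicle genes.

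Markers of epidermis, the labelled tissue's outer layer, were bright in both pools. Of 7 measured genes of differentiated epidermis, 0 passed 2-fold, with a median of 0.11 log2, summed signals of 984799 in the KO pool and 983968 in the WT pool, and Krt1 at 0.11, Krt10 at 0.14, Krt2 at -0.02 and Lor at 0.00. The 7 basal genes behaved alike, with 0 past 2-fold and a median of 0.24 log2, from -0.05 for Krt5 and 0.00 for Krt14 to 0.30 for Trp63 and 0.35 for Col17a1. Krt4, a keratin of inner stratified epithelia, was well above background in the KO pool alone, at 24.3 against 15.9 in the WT pool, a scaled ratio of 1.63. Krt76, of the palate, was likewise at 38.9 against 9.68 in the WT pool, at least 3.07-fold higher. Of the 4 measured genes of oral and tongue epithelium, Krt84 was at least 2-fold higher, at 2.34 log2, and Krt36 at least 2-fold lower, at -1.18, while Krt78 was at 0.64 and Krt13 at -0.04. The 6 listed genes had summed signals of 52289 in the KO pool and 43075 in the WT pool. Of 5 measured genes of periderm, the outer layer of the embryo's epidermis, 0 passed 2-fold, with Krt18 at 0.69, Krt8 at 0.33, Krt7 at -0.44 and Gabrp at -0.49. The 6 listed had summed signals of 3039 in the KO pool and 3032 in the WT pool.

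Markers of some other cells differed between the pools beside the Sprr2 genes. Of 12 measured hair follicle genes, 3 reached 2-fold toward the WT pool, Krt34 (-1.5), Krt86 (-1.35) and Msx2 (-1.06), and 0 toward the KO pool; all 12 lay below 0, up to Foxn1 (-0.28) and Lef1 (-0.17), with summed signals of 215871 in the KO pool and 366282 in the WT pool. Of 9 measured neutrophil genes, 5 were at least 2-fold higher, Mmp8 (2.56), Cxcr2 (1.92), Retnlg (1.65), Ltf (1.19) and Ngp (1.0), and Camp was at least 2-fold lower, at -1.0, with Csf3r at -0.04. With normexp 3 were higher and 0 lower, with a median of 0.59 log2 against 1.0, and 4 were higher with median scaling, quantile normalization or the authors' value table. The 5 higher ones were dim, at 79.6 to 256 in the KO pool and 21.6 to 86.5 in the WT pool, and Mmp9 was not well above background in the WT pool. The list's summed signals were 116301 in the KO pool and 127976 in the WT pool, of which Csf3r gave 113910 in the KO pool and 125040 in the WT pool. Of 7 measured macrophage genes, Cd163 alone passed 2-fold, at 1.02 log2, with Mrc1 at 0.50, C1qa at 0.14 and Csf1r at -0.13, though 0 reached 2-fold with each array scaled to its median. The list had summed signals of 43231 in the KO pool and 42461 in the WT pool. The 4 measured T cell genes lay below 0, none by 2-fold, from Cd3g (-0.87) and Cd3d (-0.68) to Lck (-0.49) and Cd3e (-0.07), with summed signals of 2287 in the KO pool and 3097 in the WT pool. The part of these cells in the Sprr2 values was not tested.

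Since the pools differ in sex-linked RNA and Sprr2 genes respond to oestrogen in the uterus, genes of that response were set beside them. Of 6 measured, Greb1, a target of the oestrogen receptor, was at 2.09 log2, with 1237 in the KO pool and 310 in the WT pool, and Ltf at 1.19 log2. Ltf is also in the neutrophil list, and with normexp only 1 gene reached 2-fold. The others were within 2-fold, with Areg at -0.12 and the receptor gene Esr1 at -0.33, and the median was 0.32 log2. The 6 genes had summed signals of 2242 in the KO pool and 1413 in the WT pool. Their part in the Sprr2 values was not tested.

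Outside the family and among genes at or above the median brightness of those measured, genes whose difference lay nearest to the Sprr2 median of 2.17 log2 included Saa1 (2.15), Fkbp5 (2.03), S100a8 (2.01) and S100a9 (2.36). Saa1 encodes an acute phase protein and read 2230 in the KO pool and 536 in the WT pool. Fkbp5, a cochaperone raised by glucocorticoids, read 18625 in the KO pool and 4860 in the WT pool. The likeness is of 1 difference between 2 pools and carries no pattern beyond it.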

How the data were processed

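RNA was labelled with Cy3 and hybridised to an Agilent array, design 026655, 1 array per pool, per the labels and the file headers. The deposited intensity of each spot had its background subtracted by Agilent Feature Extraction 11.5.1.1, per the submitters' processing notes, with the protocol GE1_1105_Oct12, per the file headers. The headers and rows place probes on mm9. The deposited value table held a ratio, the same intensity over a constant for each array (2273 for KO, 2406 for WT); its medians were 0.0969 for KO and 0.0946 for WT. It was not centred by gene.

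From the deposited intensity, log2 was taken, averaged over the spots of a probe and set against the 75th percentile over all probes of that array. Of 43020 non-control spots, 234 outlier spots were left out and 0 were saturated. Of 39422 probes, 28314 were named by accession, 2203 by symbol and 174 by synonym in RefSeq (GRCm38.p6), 1780 kept the file's name and 6951 had none. Probes had to be well above background in both pools; the brightest such probe stood for its gene, counted at 2-fold. A difference is KO minus WT. Its scanner error had a median of 0.20 log2 (95th percentile 0.30), and 399 probes printed at least 5 times had spots whose differences varied with a median SD of 0.041 log2. Some probes were well above background on 1 array only. Their fold is taken against the dim reading or, where higher, the lowest reading well above background on the array where they were dim. Against that lowest reading the fold is a bound, and against the dim reading it is a plain ratio.

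The members and lists were chosen with earlier results of these data known. Named were all Sprr2 genes; Pla2g4e; up to 4 genes per list, the 2 highest and the 2 lowest, with all members of short lists and of counts up to 5; the nearest genes on either side and the 5 largest differences in each direction in the region; and the 5 genes nearest to the Sprr2 median. Other genes named were chosen after their values were seen. A gene that the rule takes is not reported here. Alternatives changed the scaling, background correction, probe rule, filter and fold counted. The steps were tested on simulated data. The tools were Python 3.11.15, numpy 2.4.6, pandas 2.3.3, edlib 1.3.9.post1, matplotlib 3.10.9, R 4.3.3 and limma 3.58.1. Protein sequences were not used here.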

Additional observations from a re-analysis of the deposited data

How the results depend on the processing

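The count of 6 Sprr2 genes at least 2-fold higher and their median of 2.17 log2 stayed within 1.5 times and within a scanner error under each other scaling, the authors' value table, normexp, outlier spots kept, and the mean of a gene's probes. With no filter on dim probes 7 of 10 Sprr2 genes were 2-fold higher and the median was 1.87 log2, since more genes enter. Among genes at or above the median brightness only 3 Sprr2 genes remained, Sprr2a, Sprr2d and Sprr2h, with 1 at 2-fold and a median of 0.97 log2. At 1.5-fold 7 Sprr2 genes were higher. Without the pseudogenes Sprr2g and Sprr2j-ps 4 of 7 were 2-fold higher, with the median at 2.17 log2. Over 91 values of single Sprr2 genes under the alternatives 6 moved by more than a scanner error and 0 fell below 0. Many of these could not move, since a filter, a mean of probes or a choice of genes leaves a single-probe gene unchanged. Scaling to a median or percentile shifts all genes alike, so these counts say little about stability. With normexp, whose offset of 50 draws dim probes together, Sprr2i stood at 2.62, Sprr2f at 2.46, Sprr2e at 2.19 and Sprr2j-ps at 1.0 log2. The mean of its probes put Sprr2a at 0.66 and its dimmer probe at 1.14. Over all 19397 measured genes, 433 were 2-fold higher and 279 lower, and normexp gave 234 higher and 121 lower. With no filter 953 were higher and 563 lower, out of 24287 genes. Among the 9699 genes at or above the median brightness 101 were higher and 78 lower. At 1.5-fold the counts were 1308 and 872. No paired analysis was possible because each genotype had 1 array, and no replicate could be left out. The dimmest probes, such as those of Sprr2b and Sprr2k, limit what can be read.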
